A study of Caenorhabditis elegans with 79 samples.

Results

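The genes described here are the abundant targets of WAGO class 22G-RNAs whose small RNA level in L4 larvae of Caenorhabditis elegans stayed within a factor of 2 of wild type when rde-4 was mutated. They were chosen by 3 values of the table of L4 larvae. The authors' class of the row had to be WAGO 22G-RNA, the mean over the 3 N2 libraries had to reach 100 RPM, where RPM is the read count of a row scaled to a common library total, and the rde-4 mean had to lie between 0.5 and 2 times the N2 mean. Of 2215 WAGO class rows among the 25899 rows of that table, 346 reached 100 RPM. Of these 346 rows, 23 had a ratio under 0.5, 6 had a ratio over 2 and 1 histone gene row was left out, which leaves 316 members. Since L4 levels of rde-4 and N2 animals chose the members, those values are a description and carry no test.

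WAGO class 22G-RNAs are antisense small RNAs that RNA-dependent RNA polymerases copy from a targeted transcript in germ granule compartments called Mutator foci. They carry a 5′ triphosphate, start with G, and are loaded onto the worm-specific Argonautes (WAGOs), which silence transposons, pseudogenes and a set of coding genes. Their synthesis is set off by primary small RNAs, among them piRNAs, 26G-RNAs and the siRNAs cut from double-stranded RNA. RDE-4 is the double-stranded RNA-binding partner of the nuclease DCR-1, and RDE-1 is the Argonaute that receives primary siRNAs from it.

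The L4 larvae were rde-4(syb6665) mutants and N2, the wild-type strain, collected 54 h after the synchronised L1 stage with no RNAi (n = 3 libraries each). The adults were gravid hermaphrodites at 72 h, all under RNAi against both nrfl-1 and oma-1, of the genotypes rde-4(syb6665), rde-1(ne300) and N2 (n = 3 each). The third set came from adults under the same pair of RNAi treatments whose own rde-1 gene carries a GFP and 3xFLAG tag (cmp133), with rde-4(syb6665) or with wild-type rde-4, written rde-4(+). From these, libraries were made of the GFP::RDE-1 co-immunoprecipitate (co-IP) and of the input lysate (n = 2 each). All were whole animals, grown at 20 °C, and all libraries were treated with RppH, an enzyme that makes 5′ triphosphate RNAs clonable. Nothing in the labels says that libraries of a group came from separate cultures, so p-values measure the spread between libraries, which may be technical.

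The depth inferred from the steps of low piRNA values was between 18.7 and 22 M reads in L4 larvae, 17.4 and 22.5 M in adults and 12.7 and 22.8 M in the tagged strains. A count of 3 reads corresponded to at most 0.235 RPM, so counting error is small at the levels of most members. 22G-RNAs of the RNAi target nrfl-1 averaged 712 RPM in rde-4 adults and 58.0 RPM in rde-1 adults, against 9526 RPM in N2 adults, and ALG class 26G-RNAs summed to 479 RPM in rde-4 larvae, against 8950 RPM in N2 larvae. The embryonic miRNAs miR-35 to miR-42, whose 3p arms summed to 14154 RPM in rde-4 adults (range 13838 to 14440), reached 26559 RPM in rde-1 adults (26057 to 26962) and 29607 RPM in N2 adults (28700 to 30915). All 8 were detected in every adult library, down to 25.8 RPM, and 8 of 8 were lower in rde-4 adults by the test described below, while 2 of 8 were lower in rde-1 adults. In L4 larvae the same sum was 1013 RPM in rde-4 and 1365 RPM in N2.

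In L4 larvae the members summed to 129193 ± 1658 RPM in rde-4 mutants and 121197 ± 3484 RPM in N2 (SD, n = 3 each), which is 74.4% and 72.2% of all WAGO class 22G-RNA. The median member had an rde-4 to N2 ratio of 1.06, and the ratios ran from 0.592 to 1.96. Within the band from 0.8 to 1.25 lay 290 of the 316 members (91.8%), with 21 above it and 5 below it. The spread between replicates was small, with a median coefficient of variation of 2.72% in rde-4 and 3.63% in N2 larvae. At the limits of the rule, C53A5.13 (100.04 RPM in N2) and fre-1 (100.87 RPM) were just inside the level limit, and Y57A10A.3 (99.95 RPM) and F22H10.1 (99.77 RPM) just outside. C53A5.13 (ratio 0.592) and lido-8 (0.622) were nearest inside the lower ratio limit and C36A4.14 (0.0908) and E01G4.7 (0.0583) nearest outside, so few rows lay near that edge. At the upper limit, cpn-4 (1.96) and F07B7.1 (1.84) were inside, and F15D4.5 (2.05) and pvf-1 (2.30) outside.

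**Figure D1:**
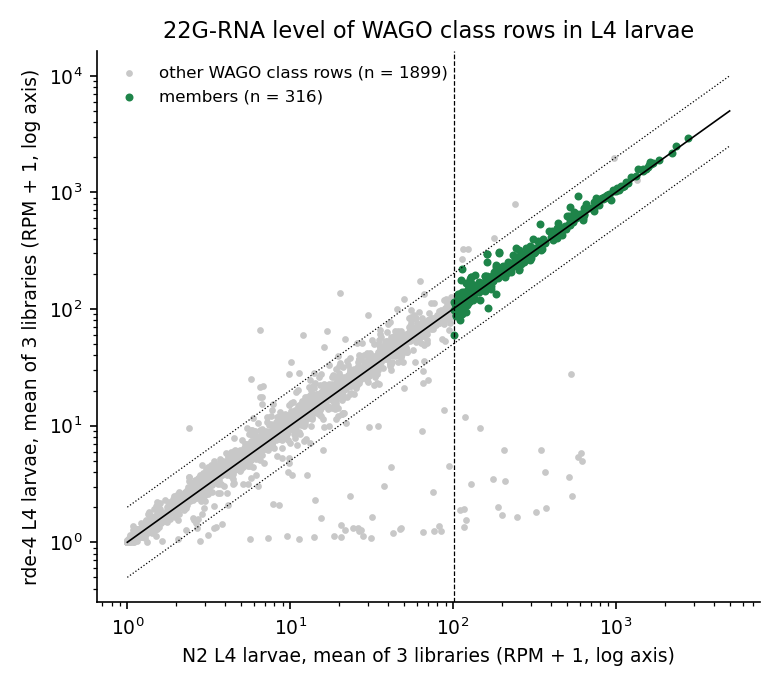
Mean 22G-RNA level of each WAGO class row in rde-4 L4 larvae (vertical) against N2 L4 larvae (horizontal), both in RPM + 1 on log axes. Green points are the 316 members, grey points the other rows, the solid line marks equal levels, dotted lines a factor of 2 and the dashed line the limit of 100 RPM; members hug the line of equality, while 23 abundant rows fall far below it.

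The members covered a wide range of levels. The median N2 larva value was 230.1 RPM per row, 25 members reached 1000 RPM and held 30.6% of the summed level, and the 12 highest held 18.0%. RPM is not corrected for transcript length, so levels of different genes are compared per kilobase of exon here, for the 276 members with an annotated length. On that scale N2 larvae ran from 8.15 to 4407 RPM per kb with a median of 178 RPM per kb. The long intergenic noncoding RNA linc-29 was highest by both measures. Its values were 2949, 2981 and 2890.4 RPM in rde-4 larvae and 2851, 2675 and 2790 RPM in N2 larvae, or 4407 RPM per kb in N2. F02C12.3 was second per length in N2 larvae at 3048 RPM per kb and W09C5.12 came next at 2396 RPM per kb.

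The other rows among the 12 highest were the pseudogenes F37H8.2, Y39E4B.14, Y46H3C.6 and cars-2, the coding genes fkb-8 (a peptidyl-prolyl isomerase of the FKBP family), bath-45 and bath-20 (both with BTB and MATH domains) and W03H9.2, and T05C3.3, which has no entry in the annotation. F37H8.2 had 2468, 2537 and 2465 RPM in rde-4 larvae, against 2376, 2318 and 2362 RPM in N2 larvae. For fkb-8 the values were 1717, 1772 and 1753 RPM in rde-4 larvae and 1629, 1628 and 1709 RPM in N2 larvae. In both genes every rde-4 library was above every N2 library, narrowly for fkb-8, in a set whose median rde-4 to N2 ratio was 1.06. These larval values chose the members and carry no test.

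By gene ID, 276 of the 316 members had an entry in the WBcel235 annotation (Ensembl release 115); the genome build the authors used is not given in the sources used here. Protein-coding genes made up 218 members (69.0%, against 78.6% of all WAGO class rows) and pseudogenes 54 (17.1%, against 11.2%). A further 2 members were lincRNAs, 2 were other noncoding RNAs and 40 had no entry. They lay on all 6 chromosomes, with 49 on I, 48 on II, 48 on III, 44 on IV, 54 on V and 33 on X, and 45 of the 276 had another member within 5000 bp. Median exonic length was 1229 bp, against 1258 bp for the class. In 4 pairs (AC8.12 with AC8.7, F07B7.1 with W09B7.1, F07B7.2 with W09B7.2, and AC8.4 with AC8.11) both rows held identical values in every library, so the reads of the copies cannot be told apart and each pair amounts to 1 measurement.

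Some members also carry the authors' label of another pathway, with identical values. ERGO target rows existed for 4 of them: eri-6, part of a helicase gene of the endogenous RNAi pathway, ZK262.8, lido-8 and Y69A2AR.31. C04G2.10, frm-1 and the nuclear hormone receptor gene nhr-229 were also ALG targets, jmjc-1 was a 23H target and imb-2, an importin gene, was a CSR class row. No 26G-RNA row of these genes exceeded 1.16 RPM in the mean of either L4 genotype. As an ERGO target, eri-6 had 1125 RPM in rde-4 larvae and 1079 RPM in N2 larvae, close to equal, whereas lido-8 had 101 RPM in rde-4 larvae and 162 RPM in N2 larvae.

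Of 68 listed genes of the small RNA machinery, 46 had a 22G-RNA row, 36 of them in the CSR class and 7 in the WAGO class, and 2 were members: sid-1, the channel that imports double-stranded RNA, and rde-11, a zinc finger protein needed to amplify exogenous RNAi. The sid-1 row held 187, 178 and 163 RPM in rde-4 larvae, against 174, 172 and 169.6 RPM in N2 larvae, and these groups overlapped. For rde-11 the larvae had 124, 117 and 120.4 RPM in rde-4 and 121, 112 and 123 RPM in N2. In adults neither passed the test of rde-4 or of rde-1 against N2, and sid-1 was higher in rde-4 than in rde-1 adults (log2 change 0.14, limma adjusted p = 0.0473), a call that was lost under 8 alternatives, among them the omission of any 1 of the 3 rde-1 libraries or of rde-4 replicate 1 or 2 (limma adjusted p between 0.0534 and 0.148). Of the 38 listed genes that could be tested, 20 were higher and 0 lower in rde-4 adults than in N2 adults, with a median log2 change of 0.14, against 0.11 for all rows tested. Over all rows 28% were higher and 6.17% lower, and over the CSR class, to which most of the listed genes belong, 35% were higher and 0.111% lower. In rde-1 adults 2 were higher and 4 lower than in N2 adults, where 7.52% of all rows were higher and 7.96% lower.

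Most members had a like level in N2 larvae and in N2 adults under RNAi. N2 adults had a median of 1.15 times the N2 larval level, and 257 of 316 members were within a factor of 2 between the stages. The adult and larval tables were normalised separately, so these ratios are descriptions. All adults were under RNAi and the larvae were not, so stage and RNAi cannot be told apart here. Across the 316 members Spearman's rho between N2 adults and N2 larvae was 0.754. The rule required 100 RPM in N2 larvae and set no limit in adults, so the ratios and rho are cut on the larval side. Above 2 times the larval level were 39 members, led by F46F2.4 with 1087 RPM in adults and 103 RPM in larvae, F32A11.5 with 2478 RPM in adults and 262 RPM in larvae, and K08B4.5 with 2112 RPM in adults and 296 RPM in larvae. Below 0.5 of it were 20 members, and 7 of these were under 10 RPM in adults. K03H9.3 was lowest in proportion, at 0.0160 of its larval level, with 1.94 RPM in N2 adults and 121 RPM in N2 larvae. Among the named genes of this kind, nhr-229 had 6.11 RPM in N2 adults and 287.5 RPM in N2 larvae, and the caspase family genes csp-2 and csp-3 had 31.9 and 50.7 RPM in N2 adults and 155 and 157 RPM in N2 larvae. Of the 14 members of this kind that could be tested, 7 were higher and 3 lower in rde-4 adults, and 7 were higher and 1 lower in rde-1 adults, than in N2 adults. The 14 include nhr-229, which was high enough to be tested only through its mutant levels. Of the 39 that were higher in adults, 5 were higher and 1 lower in rde-4, and 4 were higher and 4 lower in rde-1. Over all members tested, 29.4% were higher and 9.35% lower in rde-4, and 23.5% higher and 23.9% lower in rde-1; over all rows these shares were 28% and 6.17% in rde-4 and 7.52% and 7.96% in rde-1. These stage groups, and the genes named for them, were set after the values had been seen.

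**Figure D2:**
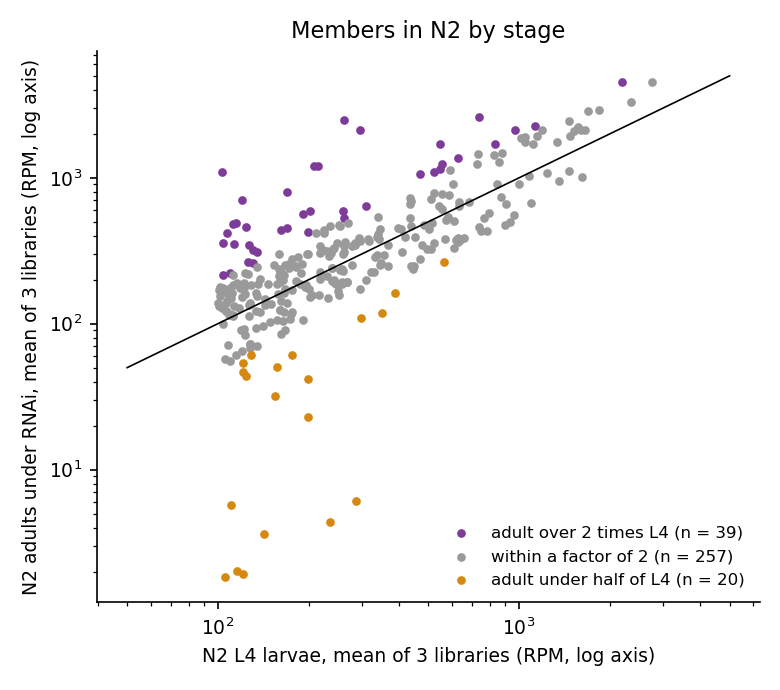
Mean level of each member in N2 adults under RNAi (vertical) against N2 L4 larvae (horizontal), in RPM on log axes, with the line of equality. Purple points (39) were over 2 times higher in adults, orange points (20) under 0.5 of the larval level, and 7 of the orange points lie below 10 RPM in adults.

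In adults the summed level of the members was 164960 ± 5304 RPM in rde-4 adults and 160642 ± 1318 RPM in rde-1 adults, against 158061 ± 1845 RPM in N2 adults (SD, n = 3 each). In rde-4 adults the single libraries had 170705, 163928 and 160248 RPM, all above the N2 libraries at 160192, 156986 and 157006 RPM, the lowest of them by a narrow margin. The difference was 4.36% of the N2 mean for rde-4, with p = 0.1 in a two-sided exact permutation test, the smallest p that 3 against 3 allows. It was 2.55% without replicate 1 of rde-4 and 7.74% when libraries were scaled to equal miRNA totals. For rde-1 it was 1.63% (p = 0.3, same exact permutation test), and this difference changed sign, to -3.86%, under the same miRNA scaling. The members made up 65.1% of WAGO class 22G-RNA in rde-4 adults, 65.4% in rde-1 adults and 64.9% in N2 adults. In whole animals, fewer cells of a type and less RNA per cell cannot be told apart.

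**Figure D3:**
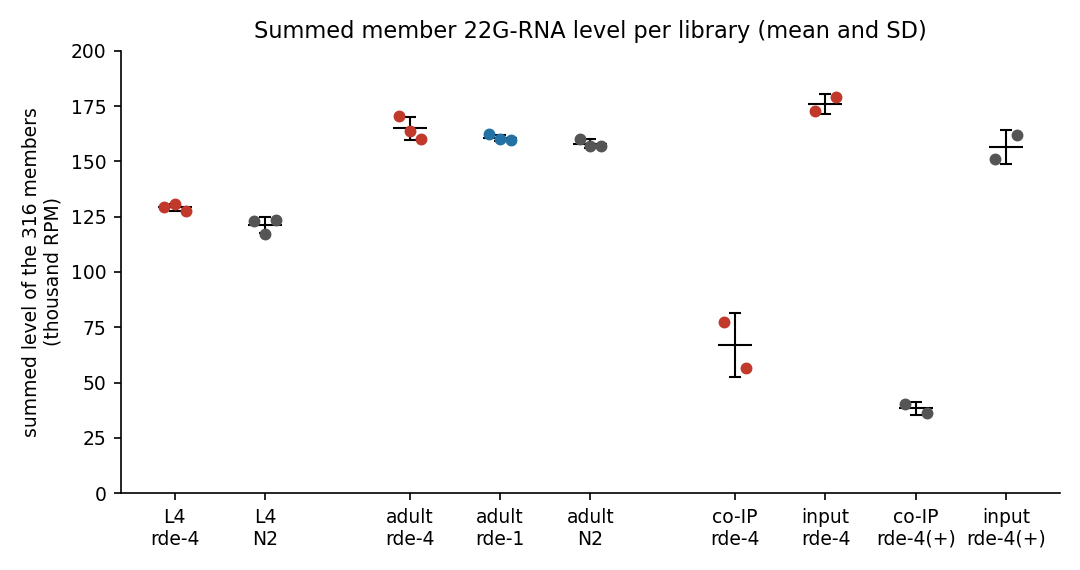
Summed 22G-RNA level of the 316 members in each library, in units of 1000 RPM, with the mean and SD of each group as bars. Larvae, adults and inputs lie between 117195 and 179046 RPM, and the 4 GFP::RDE-1 co-IP libraries between 36351 and 77253 RPM.

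Single members were tested with limma on log2(RPM + 1) over all 5450 rows of the adult table with a mean of at least 10 RPM, with Benjamini-Hochberg adjustment over all of them and a threshold of 0.05. A fold change on this scale understates the change of low rows. The filter passed 310 members. Of those, 91 were higher and 29 lower in rde-4 adults than in N2 adults, or 120 in all (38.7%), where the whole table had 34.1% called (28% higher and 6.17% lower). The share of members called was thus near the background. The median change of the members was 0.05 and that of all rows tested 0.11 on the log2 scale, and only 4 members moved by more than 1. With libraries scaled to equal miRNA totals the split was 117 higher and 19 lower, or 136 of the 310 members. Under that scaling 2481 of all 5450 rows were called, a slightly larger share than of the members. The miR-35 to miR-42 sum moved with rde-4 in these same libraries, as given above, and its part in these calls was not tested.

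The members outside the band from 0.8 to 1.25 in larvae moved the same way in adults. Of the 21 members with an L4 ratio over 1.25, 21 were higher in rde-4 adults, by 0.14 to 1.11 on the log2 scale with a median of 0.48. Of the 5 members with an L4 ratio under 0.8 (C53A5.13, lido-8, Y69A2AR.31, dlk-1 and Y71A12B.32), 5 were lower in rde-4 adults, by -0.27 to -1.25. The same 5 were also lower in rde-1 adults than in N2 adults (median -0.42), a call that for lido-8 was lost under 9 alternatives. Both mutants were compared with the same N2 libraries. Between rde-4 and rde-1 adults 2 of the 5 were higher, 1 lower and 2 not called. Of the 284 tested members inside the band, 70 were higher, 24 lower and 190 not called in rde-4 adults. Over all rows tested, 28% were higher and 6.17% lower in rde-4 adults, and 7.52% higher and 7.96% lower in rde-1 adults. The band was chosen after the values had been seen, and the larval and adult libraries are different animals. Over all alternative settings and omitted libraries, 20 or 21 of the 21 were called higher and 5 of the 5 lower in rde-4 than in N2 adults. Across the 310 members, the log2 ratio in larvae and the log2 change in rde-4 adults had Pearson's r = 0.87 and Spearman's rho = 0.83. Both are across genes, which share libraries and are not independent replicates. The larval ratio is also the value that the rule limited to between 0.5 and 2, so both coefficients are descriptions.

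**Figure D4:**
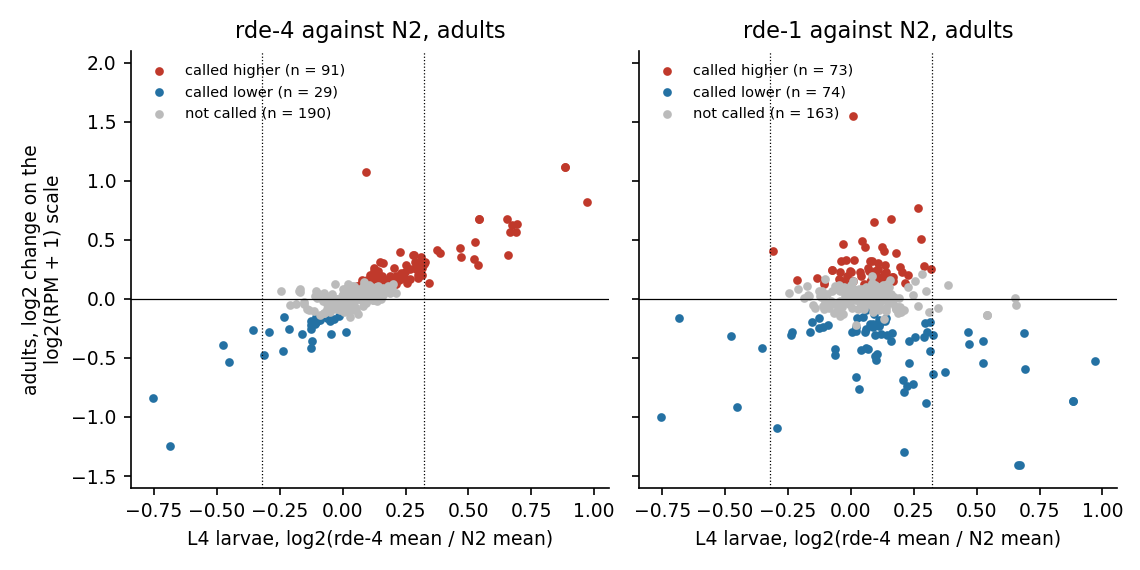
Log2 change of each of the 310 tested members in adults, rde-4 against N2 (left) and rde-1 against N2 (right), plotted against the log2 ratio of rde-4 to N2 means in L4 larvae; dotted lines mark ratios of 0.8 and 1.25. On the left all 21 members right of the band were called higher (red) and all 5 left of it called lower (blue). On the right 14 of the same 21 were called lower and 0 higher, and all 5 left of the band were called lower. Over all rows tested, 28% were higher and 6.17% lower in rde-4, and 7.52% higher and 7.96% lower in rde-1.

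The highest rise in rde-4 adults belonged to the pair F07B7.1 and W09B7.1, counted as 1 measurement. F07B7.1 (WBGene00017185, chromosome V, 8872277 to 8873535 on the plus strand, protein coding) had 285, 262 and 264 RPM in rde-4 adults, against 129, 127 and 118 RPM in N2 adults. The groups are far apart, with a log2 change of 1.11 (SE 0.0475, limma adjusted p = 1.41e-08). In larvae it had 289.6, 304 and 294 RPM in rde-4 and 162, 153 and 167 RPM in N2, so the difference was of a like size at both stages.

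The calponin family gene cpn-4 (WBGene00000780) had 338, 323 and 323 RPM in rde-4 adults, against 189, 185 and 182 RPM in N2 adults. No libraries overlapped, and the log2 change was 0.82 (SE 0.0319, limma adjusted p = 6.5e-09). The nuclear hormone receptor gene nhr-229 (chromosome IV, 17028931 to 17030594) had 16.4, 13.2 and 12.39 RPM in rde-4 adults, against 6.62, 5.30 and 6.41 RPM in N2 adults. It rose by 1.07 (SE 0.111, limma adjusted p = 4.11e-05), while in larvae its level was 295, 313 and 311 RPM in rde-4 and 280.4, 284 and 298 RPM in N2. Its rise thus concerned a row that was low in adults. The other 6 members under 10 RPM in N2 adults were below the filter and had no test; the ratio of rde-4 to N2 adult means was between 1.36 (F12A10.2) and 2.95 (K03H9.3). Y53G8AM.1, for example, had 10.7, 10.5 and 10.2 RPM in rde-4 adults, against 4.45, 4.21 and 4.50 RPM in N2 adults.

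The largest fall in rde-4 adults was that of lido-8 (WBGene00019511, chromosome II, 2997021 to 3000653 on the plus strand), one of the members that is also an ERGO target. It had 35.1, 36.1 and 34.5 RPM in rde-4 adults, against 87.6, 87.2 and 80.3 RPM in N2 adults. The log2 change was -1.25 (SE 0.0461, limma adjusted p = 4.05e-09), and lido-8 was the 1 member whose mean in rde-4 adults was under 0.5 of the N2 mean. C53A5.13 had 78.4, 77.3 and 74.4 RPM in rde-4 adults, against 140.4, 139 and 135 RPM in N2 adults, and its log2 change was -0.84. The kinase gene dlk-1, known for its role in axon regeneration, had 176, 169 and 158 RPM in rde-4 adults, against 247, 243 and 242 RPM in N2 adults (log2 change -0.54). F19B2.6 had 85.7, 76.6 and 79.9 RPM in rde-4 adults and 116, 111 and 111 RPM in N2 adults (-0.47).

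For contrast, 22 rows of the same class that reached 100 RPM in N2 larvae but had an L4 ratio under 0.5 passed the adult filter. All 22 were lower in rde-4 adults, with a median log2 change of -4.61. The members' lowest value in rde-4 adults, -1.25, was that of lido-8. In rde-1 adults 5 of the 22 were called, 3 higher and 2 lower, with a median of 0.27. Over all rows 34.1% were called in rde-4 adults and 15.5% in rde-1 adults. WAGO class rows at 10 to 100 RPM in N2 larvae, which the level limit left out, were called in 38.8% of 895 cases in rde-4 adults, against 38.7% of the members. The 6 abundant rows with an L4 ratio over 2 were all higher in rde-4 adults, with a median of 1.25, while 1 was higher and 4 were lower in rde-1 adults.

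In rde-1 adults 147 of the 310 members were called (47.4%), 73 higher and 74 lower, where 15.5% of all 5450 rows were called (7.52% higher and 7.96% lower). Of the WAGO class rows at 10 to 100 RPM, 39% were called, against 47.4% of the members. The changes were mostly small: the median was 0.02 for the members and 0.01 for all rows, and 6 members moved by more than 1. The split depended on scaling, with 23 higher and 93 lower when libraries were scaled to equal miRNA totals. Under that scaling 116 of the 310 members and 796 of all 5450 rows were called. Of the 54 pseudogene members, 52 were tested, with 5 higher and 11 lower in rde-1 adults and 18 higher and 2 lower in rde-4 adults. Of the 215 protein-coding members tested, 57 were higher and 51 lower in rde-1 adults, and 59 higher and 18 lower in rde-4 adults. In rde-4 adults 29.4% of all tested members were higher and 9.35% lower, against 28% and 6.17% of all rows. Both comparisons share the N2 libraries.

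ZK228.2 (WBGene00013945) had the highest rise in rde-1 adults. It had 345, 336 and 347 RPM in rde-1 adults, against 118, 115 and 117 RPM in N2 adults, a log2 change of 1.55 (SE 0.0364, limma adjusted p = 6.54e-10). In rde-4 adults it had 129.5, 120.3 and 121 RPM and did not pass the test (limma adjusted p = 0.0965). C46G7.3 had 266, 273 and 291 RPM in rde-1 adults, against 168, 158 and 160.5 RPM in N2 adults (log2 change 0.77), and F42E8.1 had 35.4, 39.4 and 36.9 RPM, against 22.98, 21.9 and 23.7 RPM in N2 adults (0.68). The low row of nhr-229 rose here too, with 9.66, 10.1 and 10.6 RPM in rde-1 adults, all above the N2 libraries given above (log2 change 0.65, limma adjusted p = 0.00205). This call, too, is not independent of the filter, which the row passed only through its mutant levels.

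The largest falls in rde-1 adults were those of T23B12.10 and F59C12.4. T23B12.10 (WBGene00020724) had 296, 276 and 292 RPM in rde-1 adults, against 797, 816 and 684 RPM in N2 adults, a log2 change of -1.40 (SE 0.0735, limma adjusted p = 4.29e-07). F59C12.4 (chromosome X, 16602473 to 16602622, a coding gene) had 206, 198 and 194 RPM in rde-1 adults, against 452, 508 and 644 RPM in N2 adults, and also fell by 1.40 (SE 0.112, limma adjusted p = 9.96e-06). In both genes the rde-1 libraries lay far below every N2 library. T28D6.4 (chromosome III, 11360456 to 11366198) had 48.7, 47.4 and 48.5 RPM in rde-1 adults and 118, 121 and 122 RPM in N2 adults (-1.30), and the gene haf-4, an ABC transporter of gut granules, had 93.0, 87.3 and 81.1 RPM in rde-1 adults and 185, 185 and 189 RPM in N2 adults (-1.09).

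**Figure D5:**
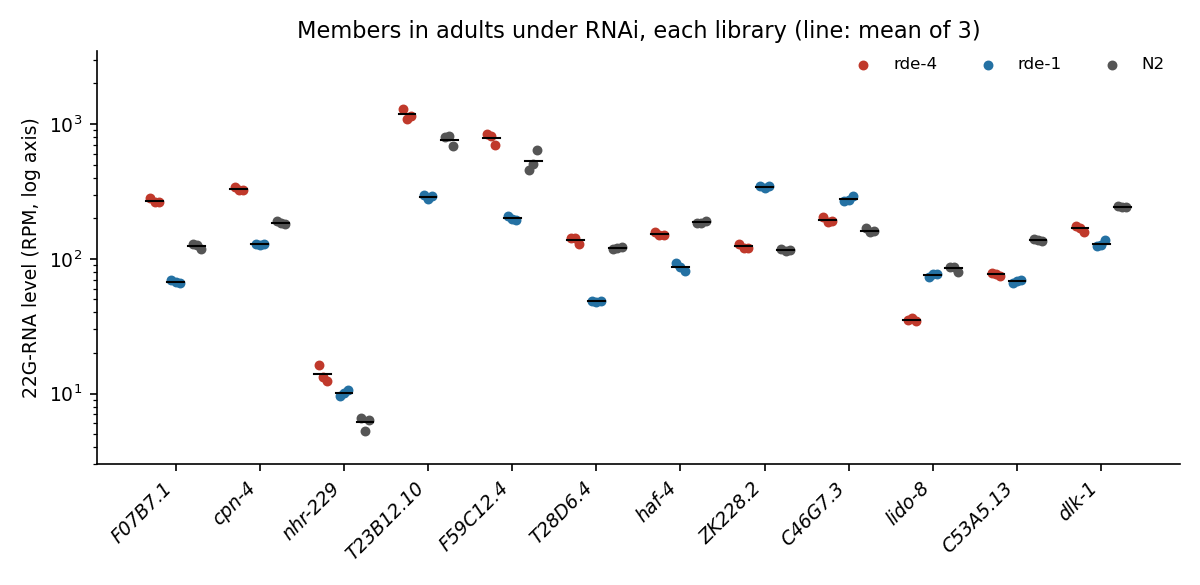
Level of 12 members in each adult library (RPM, log axis), with rde-4 in red, rde-1 in blue and N2 in grey; a line marks the mean of 3. F07B7.1, cpn-4, T23B12.10, F59C12.4 and T28D6.4 are highest in rde-4 and lowest in rde-1; haf-4, C53A5.13 and dlk-1 are highest in N2; ZK228.2 stands out in rde-1 and lido-8 in rde-4.

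The direct comparison of rde-4 with rde-1 adults called 162 of the 310 members (52.3%), 98 higher and 64 lower in rde-4, where 30.5% of all rows were called (22.3% higher and 8.24% lower). The split was 157 higher and 25 lower under scaling to equal miRNA totals, or 182 of the 310 members. Under that scaling 3566 of all 5450 rows were called, a larger share than of the members. The same scaling moved the median of all rows to 0.22, against 0.10 as deposited, on the log2 scale. Of the 21 members with an L4 ratio over 1.25, 21 were higher in rde-4 than in rde-1 adults, with a median of 0.81. Of the same 21, 14 were lower and 0 higher in rde-1 than in N2 adults, and 14 to 17 were called under the alternatives, 1 of them higher with a replicate block. Between rde-1 and N2 adults, 23.9% of the tested members and 7.96% of all rows were lower. The 3 comparisons share libraries. T23B12.10 differed most, with 1289, 1090.2 and 1157 RPM in rde-4 adults, against the 276 to 296 RPM in rde-1 adults given above (log2 change 2.03, SE 0.0735, limma adjusted p = 3.1e-09). F07B7.1 had 69.9, 67.4 and 66.0 RPM in rde-1 adults, well below the rde-4 libraries, and differed by 1.98. F59C12.4, with 841, 822 and 697 RPM in rde-4 adults, differed by 1.97. In the other direction, ZK228.2 differed by -1.46, lido-8 by -1.09, F19B2.6 by -0.88 and W03F9.3 by -0.60. lido-8 had 73.4, 77.4 and 77.2 RPM in rde-1 adults, close to the N2 level, and its fall of 0.16 on the log2 scale in rde-1 against N2 adults passed the test narrowly (limma adjusted p = 0.0404) and was lost under 9 alternatives, among them the omission of any 1 rde-1 library or of N2 replicate 1 or 2 (limma adjusted p between 0.052 and 0.148).

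Genes of a shared family did not all move together. Of the 8 F-box members named fbxa, 4 were higher and 0 lower in rde-4 adults, where 29.4% of the tested members and 28% of all rows were higher. In rde-1 adults 1 was higher and 4 lower, where 23.9% of the members and 7.96% of all rows were lower. Among them fbxa-149 had 409, 402 and 384 RPM in rde-4 adults and 173, 167 and 168 RPM in rde-1 adults, against 258, 260.3 and 249 RPM in N2 adults. It rose by 0.64 in rde-4 and fell by 0.59 in rde-1. The 5 bath members were not called in rde-4 adults, and bath-21 was lower in rde-1 adults (-0.27). The 3 fbxb members were called in neither mutant. Of the 3 caspase family genes, csp-2 (0.31) and csp-3 (0.37) rose in rde-4 adults while csp-1, a caspase, fell (-0.44); in rde-1 adults csp-1 fell (-0.31) and csp-2 rose (0.27, limma adjusted p = 0.0178), the last call being lost with equal miRNA totals and without rde-1 replicate 3.

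In the inputs of the GFP::RDE-1 strains the members summed to 175819 ± 4563 RPM in rde-4 and 156431 ± 7789 RPM in rde-4(+) (SD, n = 2 each). Of the 310 members tested with limma over 4372 rows, 12 were higher and 3 lower in rde-4 inputs, or 4.84%, against 4.87% of all rows (2.04% higher and 2.84% lower). The main fit takes 1 spread over co-IP and input libraries. With the 4 input libraries alone, 467 of all 4372 rows were called. Of the 310 members 63 were called in that fit, 53 higher and 10 lower. Leaving out any 1 of the 4 input libraries gave 7 or 8. The 12 that were higher included cpn-4, F07B7.1 with its copy W09B7.1, fbxa-149, T23B12.10, saeg-1 and F59C12.4, and 9 of the 21 members above the band in larvae were among them. The miR-35 to miR-42 sum was 19735 RPM in rde-4 inputs and 36271 RPM in rde-4(+) inputs, with 1 of 8 called lower; its part in these calls was not tested.

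cpn-4 had 394 and 390.4 RPM in rde-4 inputs, against 90.4 and 103 RPM in rde-4(+) inputs, a log2 change of 2.02 (SE 0.233, limma adjusted p = 3.18e-08). F07B7.1 had 302.5 and 307 RPM in rde-4 inputs and 92.8 and 97.4 RPM in rde-4(+) inputs (1.67), and fbxa-149 had 498 and 497 RPM in rde-4 inputs and 166 and 157 RPM in rde-4(+) inputs (1.62). In each of these the strains lay far apart. lido-8 fell again, with 34.8 and 33.0 RPM in rde-4 inputs and 94.3 and 95.7 RPM in rde-4(+) inputs (-1.46, SE 0.265, limma adjusted p = 0.00012). The p38 family kinase gene pmk-3 had 197 and 199 RPM in rde-4 inputs and 342 and 353 RPM in rde-4(+) inputs (-0.81, limma adjusted p = 0.0301), and C46G7.3 had 217 and 207 RPM in rde-4 inputs and 345 and 378 RPM in rde-4(+) inputs (-0.76, limma adjusted p = 0.0432). The calls of pmk-3 and C46G7.3 were each lost under 8 alternative settings or omitted libraries, and that of F59C12.4 under 4, among them the omission of rde-4(+) replicate 1 or of rde-4 replicate 2.

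The GFP::RDE-1 co-IP held less of every tested member than its input. In the rde-4 strain 310 of 310 were lower in the co-IP, where 95.4% of all rows were called, 2.9% higher and 92.5% lower. In the rde-4(+) strain 310 of 310 were lower, where 99.1% of all rows were called, 4% higher and 95.1% lower. The median change was -1.43 in rde-4 and -2.02 in rde-4(+) on the log2 scale, against -1.56 and -2.13 for all rows. The members summed to 77253 and 56617 RPM in rde-4 co-IPs and to 40363 and 36351 RPM in rde-4(+) co-IPs. They made up 8.26% of the summed table in rde-4 co-IPs and 29.0% in rde-4 inputs, and 4.62% in rde-4(+) co-IPs and 25.7% in rde-4(+) inputs. Within the WAGO class their share hardly moved, at 65.1% in rde-4 co-IPs and 64.8% in rde-4 inputs, and 65.3% in rde-4(+) co-IPs and 64.4% in rde-4(+) inputs. RPM is a share of a library, and scaling to equal miRNA totals moved the median of all rows to -3.33 in rde-4 and -3.58 in rde-4(+), with every member still lower.

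Changes of single members ran from -1.94 to -0.73 in rde-4 and from -2.43 to -1.20 in rde-4(+). Least depleted in rde-4 was F10E7.2, with 249.8 and 205 RPM in the co-IPs and 343 and 413 RPM in the inputs (-0.73, limma adjusted p = 0.00332). Without replicate 2 of the rde-4 inputs this call of F10E7.2 was lost and 309 members were called. It was followed by timm-17B.2, a mitochondrial import gene (-0.78), and enu-3.1 (-0.82). In rde-4(+) the least depleted were timm-17B.2, with 296 and 214 RPM in the co-IPs and 573 and 583 RPM in the inputs (-1.20), then F59C12.4 and F10E7.2 (-1.39 each). Most depleted in rde-4 were F59E12.6 (-1.94), F59H6.14 (-1.80) and dpy-31, a collagen-processing protease gene (-1.74). Most depleted in rde-4(+) were Y54G2A.20 (-2.43), F59H6.14 (-2.39) and lido-8 (-2.38). The highest member in larvae, linc-29, had 2116 and 1655 RPM in rde-4 co-IPs, against 4823 and 4919 RPM in rde-4 inputs.

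The change from input to co-IP was less negative in rde-4 than in rde-4(+) for 310 of 310 members, by a median of 0.61 on the log2 scale, against 0.57 for all rows. The 5th percentile over all rows was 0.085, so most rows of the table moved the same way. With equal miRNA totals the medians were 0.28 for the members and 0.25 for all rows, and without replicate 1 of the rde-4 co-IPs 0.35 and 0.27. By limma 0 of 310 were called for this difference and 67 had an unadjusted p under 0.05, where 3.29% of all rows were called (1.4% higher and 1.9% lower). Of the 22 abundant WAGO class rows with an L4 ratio under 0.5, 21 were called higher, with a median of 2.23. In the inputs 21 of these 22 were lower in rde-4 than in rde-4(+), with a median of -4.24. Their median change from input to co-IP was -0.68 in rde-4, with 11 of 22 called, against -3.03 in rde-4(+). The log2(RPM + 1) scale understates changes of low rows, and its part in this difference was not tested. The rde-4 co-IP libraries differed from one another. Without replicate 2 of them the median difference was 0.85 for the members and 0.87 for all rows. Omitting either replicate leaves a lone library whose spread is taken from the other groups. lido-8 had the highest value, 1.27 (SE 0.375, limma adjusted p = 0.0543, and past the threshold under 5 alternatives, among them the omission of either rde-4 co-IP library), with 14.7 and 15.5 RPM in rde-4 co-IPs and 17.7 and 17.2 RPM in rde-4(+) co-IPs.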

How the data were processed

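Small RNA levels were taken as deposited, in RPM to 2 decimals, from 3 tables that the authors made with tinyRNA; the series design text names that pipeline. Version, settings, annotation and genome build are not given in the sources used here. Depth was inferred from piRNA values up to 0.6 RPM, of which 98.9% to 99.5% were whole multiples of 1 read within 0.0055 RPM. Among WAGO class values of that size 32.4% to 63.9% were whole, so reads were not recovered and no count model was used.

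On the scale log2(RPM + 1), limma 3.58.1 (R 4.3.3) was fitted to all groups of a table together, with an intensity trend and rows of mean RPM of at least 10. P-values were adjusted by the Benjamini-Hochberg method over all rows of the table that passed this filter. The fit was tested on simulated data. Summed levels were compared by exact permutation (scipy 1.17.1). The members, gene lists and tests were chosen with earlier results of these data known. Genes are named by a rule: the 12 highest in N2 larvae, up to 4 calls each way per comparison without overlap of groups, 2 rows on either side of each limit, members of the small RNA machinery list, symbol families of 3 or more, and the 3 most and 3 least depleted per co-IP; others were named after their values were seen. Replicate numbers were not taken as pairs: same-numbered libraries correlated at -0.47 to 0.19 in adults and at -0.19 to 0.30 in the tagged strains. Sequences were not used here.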

Additional observations from a re-analysis of the deposited data

Results flagged for a closer look

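For 5 named members every rde-4 library lay on one side of its control in adults and on the opposite side in the GFP::RDE-1 inputs, which come from a strain with a tagged rde-1 gene. The difference between the sets was not tested, since they were normalised in separate tables. The log2 change of rde-4 against N2 adults was 0.25 for C46G7.3, where rde-4 against rde-4(+) inputs gave -0.76. It was 0.30 for F42E8.1, where the inputs gave -0.07, a change smaller than its SE of 0.296. It was 0.083 for ZK228.2, where the inputs gave -0.26. It was -0.54 for dlk-1, where the inputs gave 0.41, and -0.28 for haf-4, where the inputs gave 0.47. Of the input values only that of C46G7.3 passed the test by limma, and that call was lost under 8 alternatives.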

How the results depend on the processing

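The adult counts of called members stayed within 1.5 times the reported value under every alternative. Leaving out 1 library gave 90 to 116 for rde-4 against N2, 117 to 141 for rde-1 against N2 and 133 to 174 for rde-4 against rde-1, and the replicate block gave 120, 145 and 160. The summed level of rde-1 against N2 adults reversed to -3.86% under scaling to equal miRNA totals. For rde-4 against rde-4(+) inputs, the 15 calls became 7 without the filter, 9 with equal totals, 8 with equal miRNA totals, 8 without the trend, 63 with the inputs alone, and 7 to 8 with 1 library left out; the replicate block gave 21. Among members with an L4 ratio over 1.25, the inputs alone gave 20 calls, against 9, and among those under 0.8 they gave 4, against 1. For co-IP enrichment in rde-4 against rde-4(+), the 0 calls became 1 with a pseudocount of 5, 1 without the filter, 1 with the replicate block, and 0 to 306 with 1 library left out. The cause of these moves was not tested. With mutant co-IP numbers crossed in the block, an alternative chosen after seeing the data, the counts were 15 for inputs, 310 for either co-IP and 0 for enrichment. Counting identical rows once, likewise added, gave 118, 145 and 159 in adults. Alternatives were run for 69 single values of named genes: 881 of 930 outcomes kept direction and side of the threshold, 40 were no longer called, 9 were newly called and 0 reversed. Depth limits members under 10 RPM in adults; groups of 2 libraries limit the co-IP comparisons.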
